A study of Mus musculus with 10 samples.

Results

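CCL17 and CCL22 are chemokines made by mature dendritic cells, and CCR4 is the receptor on T cells that both of them bind. They were examined here with 7 further genes of type 2 and migratory dendritic cells (Ccr7, Fscn1, Cd209a, Mgl2, Irf4, Cd40 and Relb), 10 genes in all, taken by symbol from a table of 45706 genes. All 10 were matched to a single gene of the GENCODE M21 annotation of GRCm38, and 9 of them had enough counts to be tested. RNA was sequenced from 10 whole melanoma tumors of 8-week-old C57BL/6 mice, collected 4 days after subcutaneous injection of a melanoma line. The line was derived from a melanoma driven by Braf V600E, in mice that lack p16INK4a and carry a melanocyte-restricted, tamoxifen-inducible Cre (Tyr::CreERT2), so every tumor shares these alleles. COX-competent cells (Ptgs+/+) gave 4 tumors in wild-type mice, and cells whose Ptgs1 and Ptgs2, the genes of COX-1 and COX-2, had been disrupted with CRISPR/Cas9 (Ptgs-/-) gave 3 tumors in wild-type (NK-competent) mice and 3 in mice depleted of NK cells (NK-depleted hosts). For depletion the labels give 200 µg of anti-NK1.1 (PK136) and 30 µg of antibody to asialo GM1 per mouse, both on day 0 and again on day 2, whereas the methods of the study describe another schedule. Asialo GM1 is also carried by some cells other than NK cells.

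A conventional dendritic cell of type 2 takes up antigen in the tissue, and the transcription factor IRF4 is needed for its maturation and migration. On maturation it raises the receptor CCR7, which guides it along CCL19 and CCL21 to the lymph node, and the actin-bundling protein fascin (Fscn1), which shapes its long processes. It also raises the co-stimulatory receptor CD40 and signals through RelB, a subunit of the alternative NF-kB pathway. CCL17 and CCL22, whose genes lie next to each other with Cx3cl1 between them, draw CCR4+ cells such as regulatory and type 2 helper T cells.

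The libraries held 8150556 to 12839174 counts, and a floor of 3 counts in a library corresponded to 0.238 to 0.364 CPM. CPM are counts relative to library size, here scaled by trimmed mean of M values (TMM). Because the libraries were made from 3′ ends of transcripts, a count does not scale with gene length. Ptgs2 counted 96.7 to 353 CPM in Ptgs+/+ tumors and 26.0 to 74.0 CPM in both Ptgs-/- groups, without overlap, and Ptgs1 128 to 173 against 76.1 to 104 CPM. A 3′ tag need not lie in the disrupted part of a gene, so these levels are not a check of the deletion. Ncr1, an activating receptor of NK cells, had 0 counts in each of the 3 libraries of NK-depleted hosts against 20 to 77 counts in the Ptgs-/- libraries of NK-competent hosts, and Klrb1c, which encodes NK1.1, had 3 to 11 against 69 to 166 counts. Mitf, the melanocyte transcription factor, was present at 17.4 to 32.7 CPM, whereas the pigment cell genes Tyr and Mlana never exceeded 2 counts in a library. Of dendritic cell markers, Itgax counted 34.1 to 113 CPM, Zbtb46 11.6 to 24.5 CPM and Flt3 0.809 to 4.31 CPM, and Lamp3 was listed at 0 in 9 of the 10 libraries. In whole tumors, fewer cells of a type and less RNA per cell cannot be told apart.

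The promoters of Ccl17 and Ccl22 are shown because these 2 genes had the largest and the third largest fitted rise among the 9 genes tested in Ptgs-/- tumors. RefSeq promoters on GRCm38.p6 were found for 7 of the 10 genes. Each sequence below is 5′ to 3′ on the plus strand of chromosome 8 and ends just before the annotated gene start, and capitals mark matches to the motifs searched. Ccl17 spans chr8:94810203-94810452 and Ccl22 spans chr8:94745434-94745589.
Ccl17: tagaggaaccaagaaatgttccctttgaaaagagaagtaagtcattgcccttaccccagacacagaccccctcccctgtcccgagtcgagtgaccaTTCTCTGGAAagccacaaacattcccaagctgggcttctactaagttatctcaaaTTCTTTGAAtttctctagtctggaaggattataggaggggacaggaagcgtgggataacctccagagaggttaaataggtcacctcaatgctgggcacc
Ccl22: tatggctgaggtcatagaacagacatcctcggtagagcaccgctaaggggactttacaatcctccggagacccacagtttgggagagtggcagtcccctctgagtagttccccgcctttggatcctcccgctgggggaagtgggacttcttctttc
In windows of 250 bases before to 50 bases after the start, 6 motifs were searched on both strands. The Ccl17 window held 1 match to TTC and GAA with 4 bases between them, the spacing preferred by STAT6, at position -154, and 1 match to TTCNNNGAA, the spacing of other STAT proteins, at position -99. Of 32851 RefSeq promoters of this length, 6.95% held the former and 8.30% the latter. The Ccl22 window held neither, and neither window held a kappa B site (in 8.46% of promoters), the core of an interferon-stimulated response element, GAAA and GAAA with 2 bases between (3.44%), an ETS-IRF element, GGAA and GAAA with 2 bases between (2.72%), or TGANTCA (7.81%). The windows of Mgl2, Irf4 and Fscn1 held no match to any of the 6, that of Ccr4 held 1 TGANTCA and that of Cd209a 1 ETS-IRF element. The Ccr4 window, chr9:114496495-114496794, lies inside the annotated gene, downstream of its annotated start. A match in this window is a description of its letters.

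In Ptgs-/- against Ptgs+/+ tumors of wild-type mice, 6 of the 9 genes tested rose and none fell, at an adjusted p of 0.05 or less in edgeR's quasi-likelihood test over all 14550 genes tested. Ccl17, Ccl22, Ccr7, Mgl2, Irf4 and Cd40 rose, whereas Fscn1, Cd209a and Relb did not pass. Over all genes tested, 12.1% rose by this rule, and 1597 of 14550 fell. The rise was at least 1.5 on the log2 scale for 5 of the 6, all but Ccr7, against 3.14% of all genes.

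**Figure D1:**
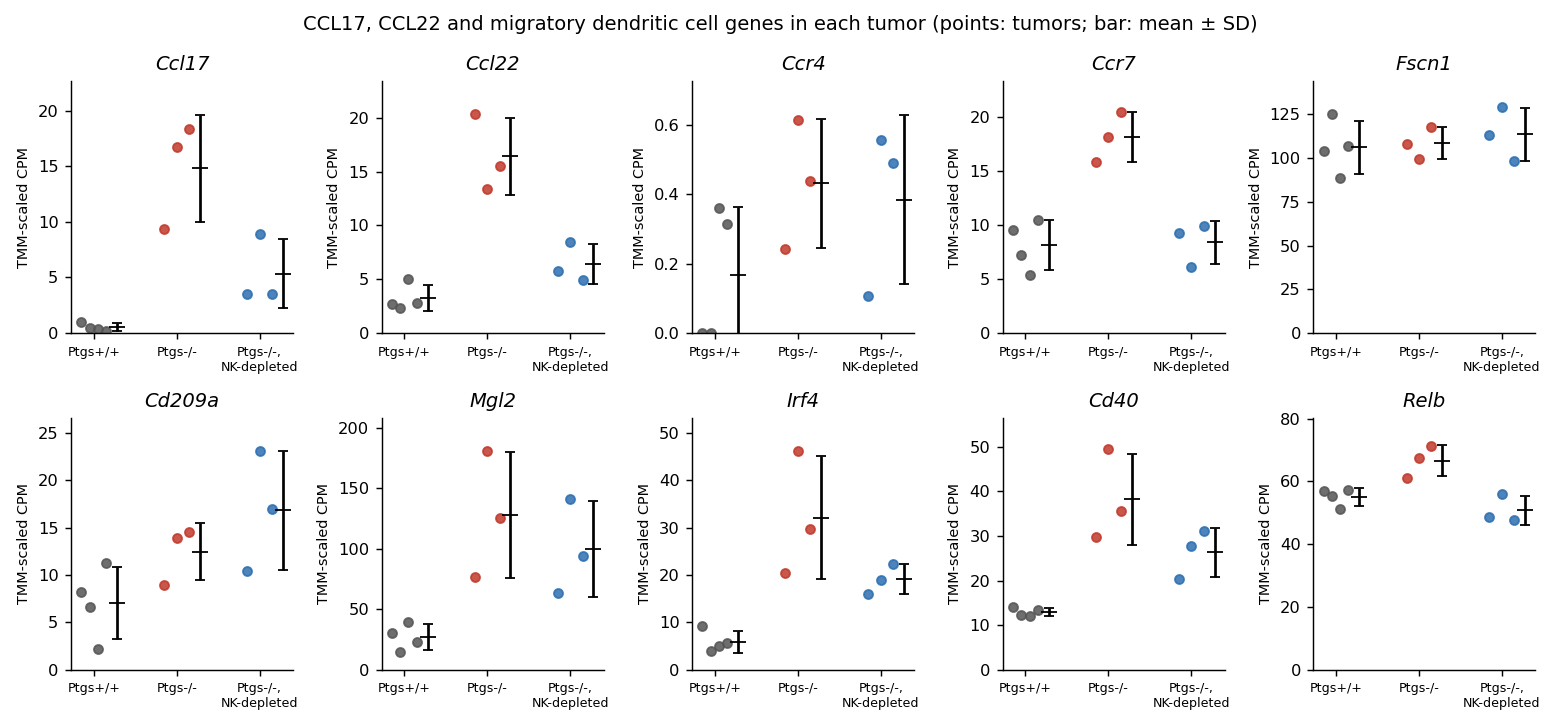
Level of each of the 10 genes in each tumor, in TMM-scaled CPM (vertical axes, linear, from 0), for 4 Ptgs+/+ tumors, 3 Ptgs-/- tumors and 3 Ptgs-/- tumors of NK-depleted hosts. Points are tumors and bars are the mean ± SD. Ccl17 was at 0.209 to 1.03 CPM in Ptgs+/+ tumors and at 9.33 to 18.4 CPM in Ptgs-/- tumors.

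Ccl17, at chr8:94810453-94812036 on the plus strand, counted 1.03, 0.429, 0.360 and 0.209 CPM in the 4 Ptgs+/+ tumors, which is 13, 4, 4 and 2 counts. The 3 Ptgs-/- tumors had 9.33, 16.8 and 18.4 CPM, and the 3 of NK-depleted hosts 3.54, 8.92 and 3.52 CPM. The 3 groups did not overlap, with 1 Ptgs+/+ library below the floor of 3 counts. Means were 0.508 ± 0.362 CPM (SD, n = 4), 14.8 ± 4.82 CPM (SD, n = 3) and 5.33 ± 3.11 CPM (SD, n = 3). Ccl17 was 27.4-fold higher in Ptgs-/- than in Ptgs+/+ tumors (95% confidence interval 13.1 to 57.1; log2 fold change 4.78, SE 0.48, edgeR adjusted p = 0.000117). Without Ptgs+/+ replicate 1, the library with 13 counts, the log2 fold change was 5.44 (adjusted p = 0.000284).

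Ccl22, at chr8:94745590-94751699 on the same strand, counted 2.70, 2.36, 5.04 and 2.83 CPM in Ptgs+/+ tumors. It counted 20.4, 13.4 and 15.6 CPM in Ptgs-/- tumors and 5.79, 8.46 and 4.89 CPM in NK-depleted hosts. Each Ptgs-/- tumor of NK-competent hosts lay above every tumor of the other groups, and the other two groups overlapped at about 5 CPM. Ccl22 was 5.04-fold higher in Ptgs-/- than in Ptgs+/+ tumors (95% confidence interval 3.30 to 7.71; log2 fold change 2.33, SE 0.28, edgeR adjusted p = 0.000296).

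Ccr4, the receptor of both chemokines, at chr9:114490316-114504916 on the minus strand, stayed near the floor. Its counts were 0, 0, 4 and 3 in Ptgs+/+ tumors, 2, 6 and 5 in Ptgs-/- ones and 1, 6 and 5 in NK-depleted hosts. It did not pass the filter on low counts, and no difference was detectable at this depth. When no filter was used, its log2 fold change in Ptgs-/- relative to Ptgs+/+ tumors was 1.36 (SE 0.84, edgeR adjusted p = 0.385).

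Ccr7, at chr11:99144196-99155077 on the minus strand, counted 9.53, 7.18, 5.40 and 10.5 CPM in Ptgs+/+ tumors and 15.9, 18.1 and 20.5 CPM in Ptgs-/- tumors. In NK-depleted hosts it counted 9.23, 6.13 and 9.89 CPM, all within the range of Ptgs+/+ tumors. Ccr7 was 2.23-fold higher in Ptgs-/- than in Ptgs+/+ tumors (95% confidence interval 1.57 to 3.18; edgeR adjusted p = 0.00479). The other gene of the migratory state, Fscn1 at chr5:142960343-142973185, was similar in level throughout, at 88.6 to 125 CPM without COX loss (Ptgs+/+), 99.3 to 118 CPM in Ptgs-/- tumors and 98.4 to 129 CPM in NK-depleted hosts. Its log2 fold change was 0.03 in Ptgs-/- relative to Ptgs+/+ tumors (95% confidence interval -0.26 to 0.32, edgeR adjusted p = 0.890), so a change of more than 0.32 either way lay outside the interval.

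Mgl2, a galactose-type lectin of type 2 dendritic cells and some macrophages, lies at chr11:70130329-70137550. It counted 30.7, 14.5, 39.4 and 23.0 CPM in Ptgs+/+ tumors, 76.9, 181 and 126 CPM in Ptgs-/- ones and 63.1, 142 and 94.3 CPM in NK-depleted hosts. All 6 Ptgs-/- tumors lay above all 4 Ptgs+/+ tumors. Mgl2 rose 4.73-fold in Ptgs-/- relative to Ptgs+/+ tumors (95% confidence interval 2.73 to 8.22; edgeR adjusted p = 0.00147). Its near-identical neighbor Clec10a held 44732 counts in all against 8087 for Mgl2, and how reads shared by such copies were counted is not given in the sources used here, so the split between them is uncertain.

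Cd209a, a C-type lectin of monocyte-derived and type 2 dendritic cells, lies at chr8:3743397-3748984. It counted 8.18, 6.65, 2.16 and 11.3 CPM in Ptgs+/+ tumors, 8.97, 13.9 and 14.5 CPM in Ptgs-/- ones and 10.4, 23.1 and 16.9 CPM in NK-depleted hosts. The groups overlapped, and the log2 fold change in Ptgs-/- relative to Ptgs+/+ tumors was 0.83 (SE 0.42, edgeR adjusted p = 0.184). Cd209a is 1 of 7 similar Cd209 genes with counts in the table, from 202 counts in all for Cd209c to 18959 for Cd209f, and reads shared among them are uncertain in the same way.

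Irf4, at chr13:30749226-30766976, counted 9.21, 3.97, 4.95 and 5.54 CPM in Ptgs+/+ tumors. It counted 20.5, 46.2 and 29.7 CPM in Ptgs-/- tumors and 16.0, 19.1 and 22.4 CPM in NK-depleted hosts. Every Ptgs-/- tumor of either kind of host was above every Ptgs+/+ tumor. Irf4, which B cells and activated T cells also express, rose 5.38-fold in Ptgs-/- relative to Ptgs+/+ tumors (95% confidence interval 3.38 to 8.55; edgeR adjusted p = 0.000387).

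Cd40, at chr2:165055627-165072948, counted 12.1 to 14.1 CPM in the 4 Ptgs+/+ tumors. It counted 29.7, 49.5 and 35.6 CPM in Ptgs-/- tumors and 20.4, 27.7 and 31.1 CPM in NK-depleted hosts, again all above Ptgs+/+ tumors. The rise in Ptgs-/- relative to Ptgs+/+ tumors was 2.96-fold (95% confidence interval 2.23 to 3.93; edgeR adjusted p = 0.000292). Relb, at chr7:19606217-19629438 on the minus strand, counted 51.1 to 57.1 CPM in Ptgs+/+ tumors, 61.2, 67.5 and 71.2 CPM in Ptgs-/- ones and 48.7, 56.0 and 47.7 CPM in NK-depleted hosts. The 3 Ptgs-/- tumors of NK-competent hosts were the highest, yet the log2 fold change of 0.28 against Ptgs+/+ tumors (SE 0.10) did not pass the test (edgeR adjusted p = 0.0658). It passed when libraries were scaled by their totals alone (0.0315) and in DESeq2 (0.0366). None of the 10 genes overlapped another gene of the annotation on either strand.

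The part of NK cells was addressed by comparing hosts: Ptgs-/- tumors of NK-competent and NK-depleted hosts were set against each other. Ccl22 alone of the 9 genes rose in NK-competent hosts, none fell, and over all genes tested 0.515% rose and 0.921% fell. No member also reached the log2 fold change of 1.5, against 0.323% of all genes. Ccl22 was 2.56-fold higher (95% confidence interval 1.65 to 3.99; log2 fold change 1.36, SE 0.29, edgeR adjusted p = 0.0456). This call was close to the threshold: the adjusted p was 0.0124 without Ptgs+/+ replicate 3, and 0.0537 to 0.200 when any other of the 10 libraries was left out in turn, each of which ended the call, while the log2 fold change stayed between 1.18 and 1.62. All 3 NK-depleted libraries and 2 of the 3 NK-competent ones carry the experiment code EB046. Within that code alone the log2 fold change was 1.42 and the adjusted p 0.145.

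**Figure D2:**
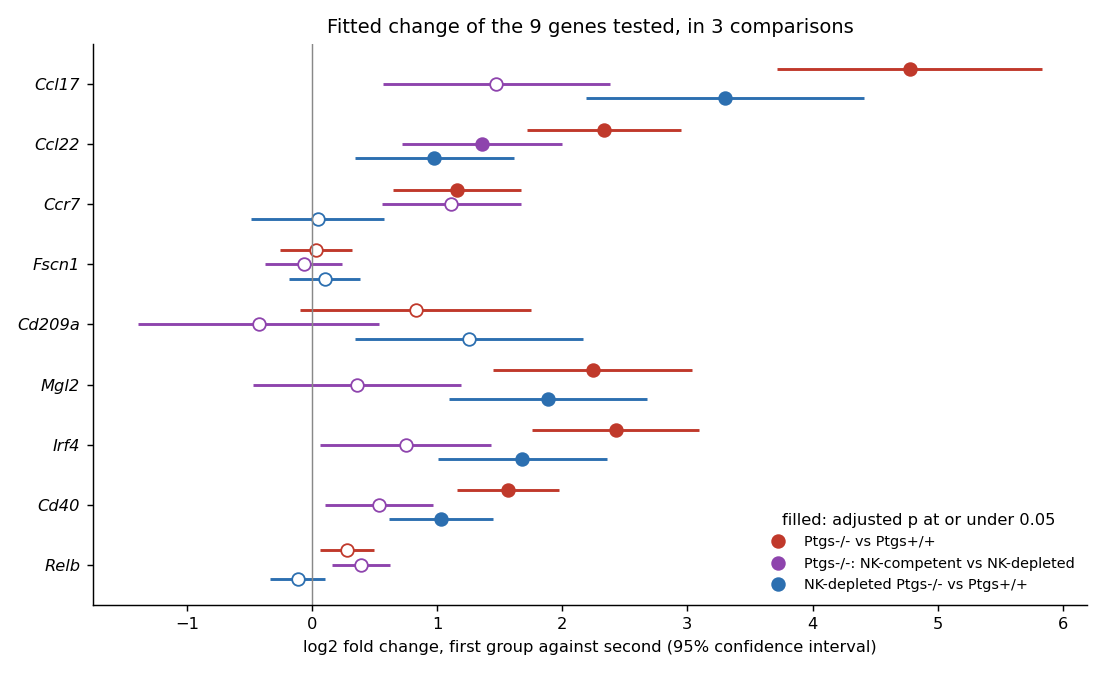
Fitted log2 fold change of the 9 genes tested (horizontal axis) with 95% confidence intervals, in 3 comparisons that share libraries. Filled points have an adjusted p of 0.05 or less in edgeR's quasi-likelihood test. Comparing NK-competent with NK-depleted hosts, the intervals of 6 genes lay above 0 and Ccl22 alone passed. These intervals are not adjusted for the number of genes. In that comparison 1630 of all 14550 genes tested had an unadjusted p under 0.05 in the same test, in either direction.

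The fitted differences of Ccl17 and Ccr7 between these groups were of the same order but did not pass. For Ccl17 the log2 fold change was 1.47 (SE 0.42, edgeR adjusted p = 0.158), and no NK-depleted tumor reached the lowest NK-competent one, at 8.92 against 9.33 CPM. For Ccr7 it was 1.11 (SE 0.25, adjusted p = 0.0634). The Ccr7 difference passed without Ptgs+/+ replicate 3 (0.0230) or without Ptgs-/- replicate 1 (0.0464), and in 4 of 11 other settings, among them DESeq2 (0.00296). The Ccl17 difference passed in DESeq2 (0.0382) and when no filter on low counts was used (0.0136).

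The other members gave smaller fitted differences in this comparison. The log2 fold change was 0.75 for Irf4 (95% confidence interval 0.06 to 1.43), 0.54 for Cd40 (0.10 to 0.97), 0.39 for Relb (0.16 to 0.63) and 0.36 for Mgl2 (-0.47 to 1.19). Cd209a (-0.43, interval -1.39 to 0.53) and Fscn1 (-0.07, interval -0.37 to 0.24) had negative values. The edgeR adjusted p of these 6 genes lay between 0.140 and 0.890. Relb passed in 1 of the 21 alternative settings. The wide intervals of Irf4, Mgl2 and Cd209a include a log2 difference of 1 in at least 1 direction.

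Set against Ptgs+/+ tumors, Ptgs-/- tumors of NK-depleted hosts showed a rise of 5 of the 9 genes and a fall of none, where 6.63% of all genes rose and 5.87% fell. Ccl17, Ccl22, Mgl2, Irf4 and Cd40 passed, and Ccl17, Mgl2 and Irf4 also exceeded 1.5 on the log2 scale, as did 2.01% of all genes. This comparison shares its libraries with the other two, so its values are not independent of theirs. Ccl17 was 9.87-fold higher (95% confidence interval 4.57 to 21.3; edgeR adjusted p = 0.00163), Mgl2 3.69-fold (2.13 to 6.40; 0.00613), Irf4 3.20-fold (2.01 to 5.11; 0.00467) and Cd40 2.04-fold (1.53 to 2.72; 0.00465). Ccl22 was 1.97-fold higher with an adjusted p of 0.0486, and the call held only without Ptgs+/+ replicate 3 (0.00848) or Ptgs-/- replicate 1 (0.0423), with 0.0527 to 0.205 when another library was left out. Ccr7 had a log2 fold change of 0.05 (95% confidence interval -0.49 to 0.58, adjusted p = 0.930), and Cd209a one of 1.25 (0.34 to 2.17, adjusted p = 0.0729), which passed without Ptgs+/+ replicate 4 (0.0399).

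Transcripts of other tissues moved with the NK-depleted libraries. The summed level of 6 skeletal muscle markers was 1911 to 4372 CPM in them, against 80.9 to 295 CPM in Ptgs-/- and 14.0 to 134 CPM in Ptgs+/+ libraries. NK-depleted replicate 2 had the highest Ccl17, Ccl22, Cd209a and Mgl2 of its group, together with the highest Glycam1, a gene of lymph node vessels, at 5.39 CPM against 0 and 0.107 CPM in the other two, and the highest Ccl19 and Ccl21a, at 8.92 and 5.67 CPM. Replicate 1 had the highest Ms4a1, a B cell gene, at 4.83 CPM. Without replicate 2, Ccl17 was still higher than in Ptgs+/+ tumors (log2 fold change 2.71, edgeR adjusted p = 0.00718), as were Mgl2 (1.54, 0.0333), Irf4 (1.68, 0.0193) and Cd40 (0.99, 0.0235), whereas Ccl22 was not called (0.72, 0.205). Without Ptgs+/+ replicate 1 the Ccl17 value was 3.96 (0.00208). Without replicates 1 and 2 of the NK-depleted group, 1 library of it remains, which is assumed to vary like the libraries of the other groups. The log2 fold changes against Ptgs+/+ tumors were then 2.69 for Ccl17 (edgeR adjusted p = 0.0469), 1.25 for Cd40 (0.0294), 1.79 for Mgl2 (0.0800) and 1.89 for Irf4 (0.0597). In the comparison of the Ptgs-/- groups, the Ccl17 value without replicate 2 was 2.07 (0.0548). The part of muscle and lymph node transcripts in these results was not tested.

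Ratios of 2 genes within a tumor were compared to ask whether the chemokines moved in proportion to each other and to Ccr7 and Mgl2. With 3 tumors against 4 a two-sided exact permutation test cannot go below p = 0.0571, and with 3 against 3 not below 0.100, so none of the 12 comparisons could pass 0.05. On the scale of log2 of CPM + 0.5, the ratio of Ccl17 to Ccr7 averaged -3.12 ± 0.57 (SD, n = 4) in the Ptgs+/+ group, -0.33 ± 0.35 (SD, n = 3) in the Ptgs-/- group and -0.71 ± 1.05 (SD, n = 3) in NK-depleted hosts. Both Ptgs-/- groups lay wholly above Ptgs+/+ tumors, by 2.79 and 2.41 (exact permutation p = 0.0571 and adjusted p = 0.171 for each, the smallest p this design allows). The ratio of Ccl17 to Mgl2 was higher in Ptgs-/- than in Ptgs+/+ tumors by 1.70 (exact permutation p = 0.0571, adjusted p = 0.171) and higher in NK-competent than in NK-depleted hosts by 1.11 (exact permutation p = 0.100, adjusted p = 0.229), without overlap in either case. Between NK-depleted and Ptgs+/+ tumors this ratio overlapped (difference 0.59, exact permutation p = 0.286, adjusted p = 0.381).

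The ratio of Ccl17 to Ccl22 averaged -1.90 in the Ptgs+/+ group, -0.18 in the Ptgs-/- group and -0.33 in NK-depleted hosts. Ptgs-/- tumors overlapped Ptgs+/+ tumors through replicate 1, at -1.09 (difference 1.72, exact permutation p = 0.114, adjusted p = 0.229), and differed little from NK-depleted ones (0.15, exact permutation p = 0.800, adjusted p = 0.800). NK-depleted tumors lay wholly above Ptgs+/+ tumors, by 1.57 (exact permutation p = 0.0571, adjusted p = 0.171). The ratio of Ccl22 to Ccr7 overlapped in all 3 comparisons, with differences of 1.07, 0.23 and 0.84 (exact permutation p = 0.171, 0.600 and 0.229, adjusted p = 0.294, 0.720 and 0.343).

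**Figure D3:**
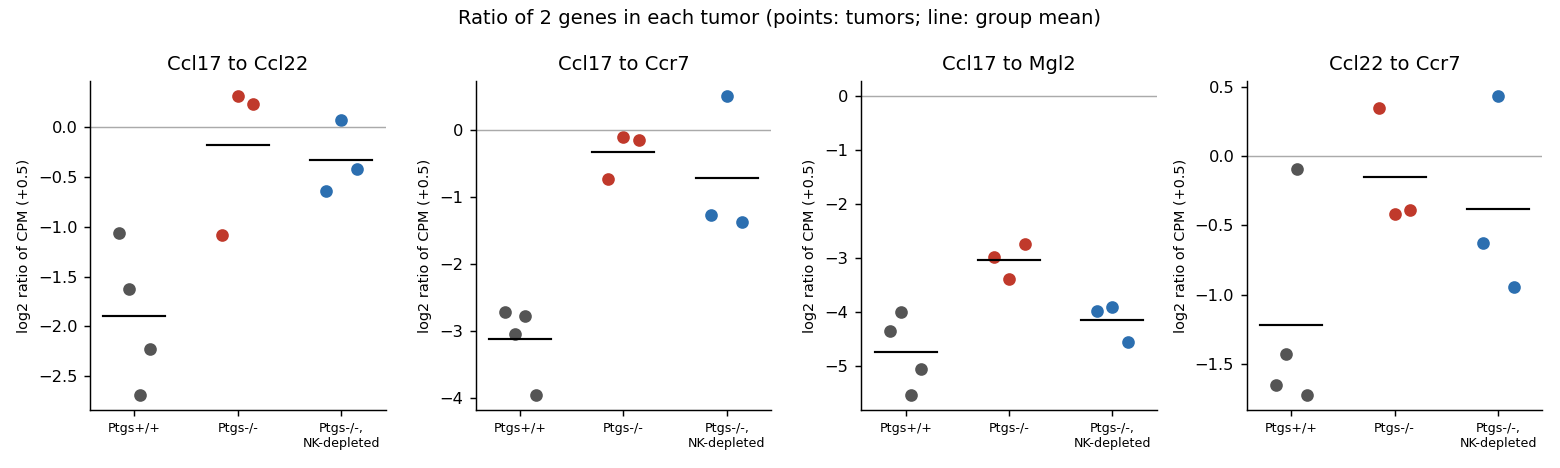
Log2 ratio of 2 genes in each tumor (vertical axes, 0.5 CPM added to each gene), with points for tumors and lines for group means. The ratio of Ccl17 to Ccr7 was at or under -2.71 in all 4 Ptgs+/+ tumors and at or above -1.37 in all 6 Ptgs-/- tumors.

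Of the genes around the chemokines, 11 others were tested from 200 kb before Ccl22 to 200 kb after Ccl17. The starts of the 2 chemokine genes are 64.9 kb apart. In Ptgs-/- against Ptgs+/+ tumors 1 of the 11, Adgrg5, an adhesion G protein-coupled receptor, rose (log2 fold change 1.39, edgeR adjusted p = 0.00329). Over all genes tested, 12.1% rose. Cx3cl1, the gene of fractalkine between the 2 chemokine genes, counted 48.1 ± 10.7 CPM (SD, n = 4) in the Ptgs+/+ group, 64.7 ± 6.45 CPM (SD, n = 3) in the Ptgs-/- group and 91.1 ± 25.5 CPM (SD, n = 3) in NK-depleted hosts. Its group means were ordered differently from those of Ccl17 and Ccl22, with a log2 fold change of 0.43 in Ptgs-/- relative to Ptgs+/+ tumors (adjusted p = 0.158) and of 0.92 in NK-depleted ones against Ptgs+/+ tumors (adjusted p = 0.0130).

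**Figure D4:**
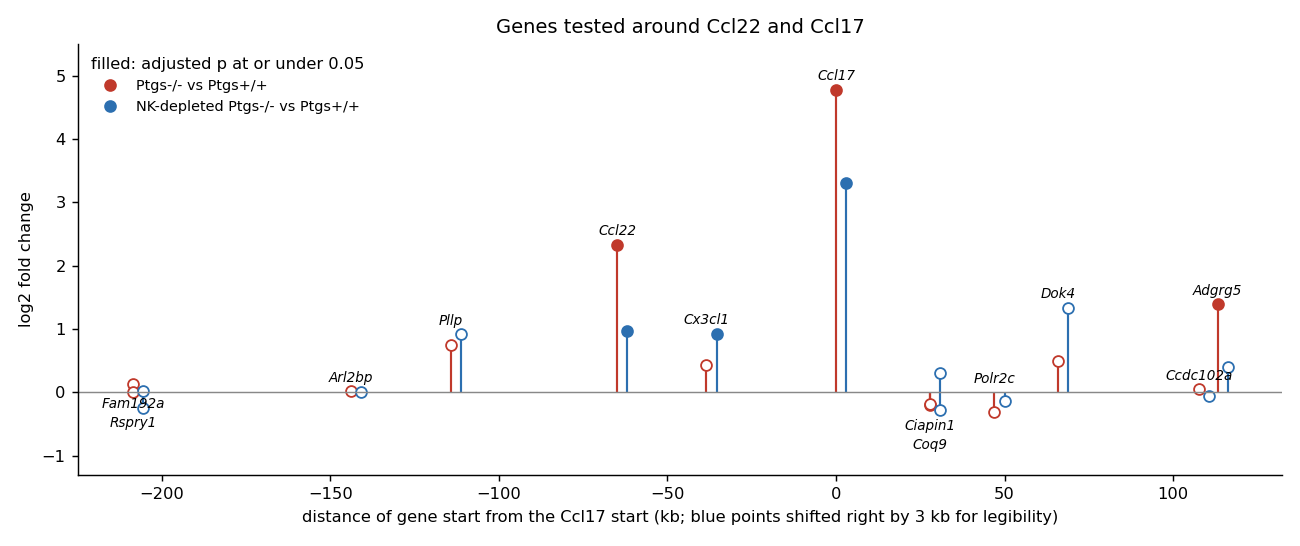
Log2 fold change against Ptgs+/+ tumors (vertical axis) of the 13 genes tested around Ccl22 and Ccl17, by the distance of each gene start from that of Ccl17 (horizontal axis, kb). Filled points have an adjusted p of 0.05 or less; red is Ptgs-/- and blue NK-depleted Ptgs-/-. Ccl17 (4.78 and 3.30) and Ccl22 (2.33 and 0.98) stood beside Cx3cl1 (0.43 and 0.92).

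Wider lists of companion genes were then counted. They were chosen with earlier results known, so the counts describe these tumors. Of 28 genes of mature migratory dendritic cells, 24 were tested, and in Ptgs-/- relative to Ptgs+/+ tumors 11 rose, 1 fell and 12 did not pass. The share of all genes tested that rose in this comparison was 12.1%, and 1597 of 14550 fell. The median log2 fold change of the 24 genes was 0.81, against -0.01 over all genes tested. Among them Cd83, a maturation marker, rose by 1.97 (edgeR adjusted p = 0.000218), Il12b, the p40 subunit of IL-12, by 2.52 (0.00195), Tnfrsf4, the co-stimulatory receptor OX40, by 1.84 (0.000578), and Traf1, an adaptor of TNF receptors, by 1.11 (0.00171). Slco5a1, a transporter, fell by 0.76 (0.0372). Between NK-competent and NK-depleted hosts 2 of the 24 rose, namely Traf1 (1.01, 0.0306) and Stat4, a transducer of IL-12 signals (1.54, 0.0168), which also serves NK and T cells, and the median was 0.43. The share of all genes tested that rose there was 0.515%. In NK-depleted against Ptgs+/+ tumors 3 rose, Cd83 (1.44, 0.00181), Tnfrsf4 (1.19, 0.0107) and Cd80, a ligand of CD28 (1.14, 0.0273), and the median was 0.16. The share of all genes tested that rose in that comparison was 6.63%. Slco5a1, Stat4 and Cd80 were named after their values were seen.

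Of 16 type 2 dendritic cell genes, 14 were tested and 8 rose in Ptgs-/- relative to Ptgs+/+ tumors, and the median over the 14 was 0.68 on the log2 scale. Over all genes tested, 12.1% rose. Ear2, an eosinophil-associated ribonuclease that some monocytes express, rose by 3.54 (edgeR adjusted p = 5.54e-05), Tnip3 by 1.83 (0.00264), H2-DMb2, a class II chaperone, by 1.80 (0.000401), and Itgam, the integrin CD11b, by 0.92 (0.00172). Clec10a, the lectin whose reads may be shared with Mgl2, rose by 1.38 (0.00273). None passed between the Ptgs-/- groups (median 0.14), and 4 rose in NK-depleted against Ptgs+/+ tumors (median 0.36), among them Ear2 by 3.39 (8.21e-05) and Tnip3 by 1.83 (0.00430). The share of all genes tested that rose in the latter comparison was 6.63%. Zbtb46 and Flt3, which mark conventional dendritic cells as a whole, had log2 fold changes of 0.30 and 0.79 in Ptgs-/- relative to Ptgs+/+ tumors (adjusted p = 0.407 and 0.227).

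Markers of other myeloid cells moved with these groups. The counts below stand beside these shares of all genes tested. In Ptgs-/- relative to Ptgs+/+ tumors 12.1% rose and 1597 of 14550 fell. In NK-competent against NK-depleted hosts 0.515% rose and 0.921% fell, and in NK-depleted against Ptgs+/+ tumors 6.63% rose and 5.87% fell. Of 8 type 1 dendritic cell markers, 7 rose in Ptgs-/- relative to Ptgs+/+ tumors (median 1.31), Batf3 by 2.76 (edgeR adjusted p = 4.29e-05) and Xcr1 by 2.16 (6.39e-05), none passed between the Ptgs-/- groups, and 6 rose in NK-depleted against Ptgs+/+ tumors. Of 12 macrophage and monocyte markers 10, 1 and 5 rose in the 3 comparisons, and their summed level was 2809 to 3336 CPM in Ptgs+/+, 4701 to 7172 CPM in Ptgs-/- and 4419 to 4545 CPM in NK-depleted Ptgs-/- tumors. Of the 5 plasmacytoid dendritic cell markers 3, 0 and 3 rose, and 1, Cox6a2, fell in NK-competent against NK-depleted hosts. Cox6a2, which skeletal muscle also expresses, counted 29.1 to 62.2 CPM in NK-depleted, 4.48 to 11.2 CPM in NK-competent Ptgs-/- and 2.09 to 4.59 CPM in Ptgs+/+ libraries, and so moved with the muscle markers. The other 4 had positive fitted differences between the Ptgs-/- groups, none past the test. Of 7 neutrophil markers tested 5 fell in Ptgs-/- relative to Ptgs+/+ tumors. The summed level of all 8 on the list was 68.9 to 94.9 against 371 to 614 CPM. In NK-competent against NK-depleted hosts 2 of the 7 fell, and in NK-depleted against Ptgs+/+ tumors 4 fell and 1 rose. The 3 B cell and lymph node markers tested had a median of 0.73 in Ptgs-/- relative to Ptgs+/+ tumors, and 1 of them, Cd79b, rose. The part of these cells in the levels of the 10 genes was not tested.

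**Figure D5:**
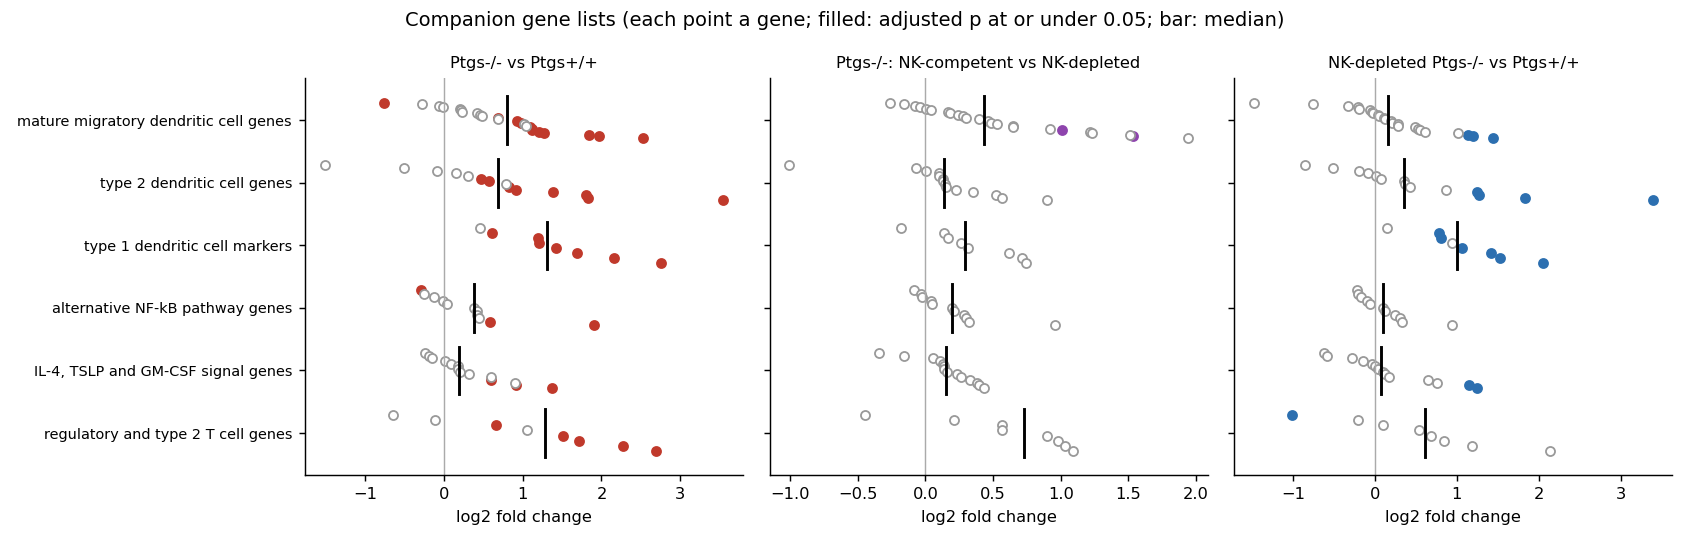
Log2 fold change of each gene tested in 6 companion lists (horizontal axes), in 3 comparisons, with filled points for an adjusted p of 0.05 or less and bars for the median of a list. In Ptgs-/- against Ptgs+/+ tumors the medians were 0.81 for mature migratory and 0.68 for type 2 dendritic cell genes, 1.31 for type 1 dendritic cell markers and 0.38 for alternative NF-kB genes.

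Signals known to induce these chemokines were also counted. Of 17 genes of IL-4, TSLP and GM-CSF signalling, 14 were tested and 3 rose in Ptgs-/- relative to Ptgs+/+ tumors (median 0.19), where 12.1% of all genes tested rose. The 3 were Csf2ra, the GM-CSF receptor alpha chain, by 1.38 (edgeR adjusted p = 0.00135), Il7r by 0.92 (0.00651) and Il2rg by 0.60 (0.0135). Csf2, the gene of GM-CSF, had 0 counts in 9 of 10 libraries, and Il4 and Il13 did not pass the filter. In NK-depleted against Ptgs+/+ tumors 2 of the 14 rose, among them Tslp by 1.25 (0.0379), where 6.63% of all genes tested rose. Stat6 had log2 fold changes of 0.18, 0.14 and 0.04 in the 3 comparisons, none past the test. Of 11 alternative NF-kB genes tested, 2 rose in Ptgs-/- relative to Ptgs+/+ tumors, Map3k14, the kinase NIK, by 0.59 (0.00257) and Ltb, lymphotoxin beta, by 1.91 (0.0126), and Ltbr, its receptor, fell by 0.29 (0.0438). These counts are near the background of 12.1% of all genes higher and 1597 of 14550 lower, and are no result about the pathway. None passed in the other two comparisons.

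On the receiving side, 8 of 10 genes of regulatory and type 2 T cells were tested and 5 rose in Ptgs-/- relative to Ptgs+/+ tumors (median 1.28). Over all genes tested, 12.1% rose in this comparison. Icos, a co-stimulatory receptor, rose by 2.28 (edgeR adjusted p = 0.00104), Tnfrsf18, or GITR, by 1.72 (0.000644), Il2ra by 1.52 (0.00683) and Ikzf2 by 0.66 (0.00609). None passed between the Ptgs-/- groups, and in NK-depleted against Ptgs+/+ tumors none rose and 1, Tnfrsf9, fell, where 5.87% of all genes tested fell. Foxp3, which defines regulatory T cells, was at most 0.819 CPM in any tumor and was not tested, and Gata3 had a log2 fold change of -0.65 (adjusted p = 0.252). All 6 general T cell markers tested rose in Ptgs-/- relative to Ptgs+/+ tumors (median 2.58), as did all 7 NK cell markers tested (median 2.29), several of which share expression with these lists. Ccr8, a receptor of regulatory T cells, was listed at 0 in every library, and its ligand Ccl1 rose by 3.72 (edgeR adjusted p = 0.00354) from 0 to 0.214 CPM (at most 2 counts) in Ptgs+/+ to 0.970 to 2.05 CPM in Ptgs-/- tumors. Ccl1 was the 1 gene called of 6 tested among 9 further chemokine genes (ligands of CCR7 and CCR8, Ccr8, atypical receptors and Cx3cl1), and with only the 2 groups compared none was called. In NK-depleted against Ptgs+/+ tumors 1 of the 6, Cx3cl1, rose, beside 6.63% of all genes tested, and none passed between the Ptgs-/- groups.

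The genes whose pattern was most like that of Ccl17 over the 10 libraries, by root mean square difference of log2(CPM + 1) centred on each gene's mean, were Batf3 (0.433), Slamf8 (0.468), Gbp8 (0.470), Clec12a (0.479) and Clec4b1 (0.498). Those most like Ccl22 were BC064078 (0.358), Gm15232 (0.364), Tagap (0.380), Gm13561 (0.388) and Fcgr4 (0.390). The libraries share their groups, so likeness reflects the order of the group means as well as of single tumors. When each gene was scaled to an SD of 1, 1 of the 5 genes most like Ccl17 stayed among the 5, Gbp8, and none of those most like Ccl22.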

How the data were processed

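RNA of 10 tumors was sequenced as QuantSeq 3′ libraries, 1 library per tumor. The authors used BBDUK, fqtrim and cutadapt for trimming, STAR for alignment to GRCm38, and featureCounts with Ensembl version 86 genes for counting. The deposited values are raw counts per gene, neither normalized nor pooled, and strand and multi-mapping settings are not given in the sources used here. Of 45706 genes, 45143 were named by GENCODE M21. The 563 unnamed ones stayed in the library totals and in the set that was filtered and tested. Groups came from the labels.

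The tests used edgeR 4.0.16 on R 4.3.3, with limma 3.58.1. The filter filterByExpr kept 14550 genes, libraries were scaled by TMM, and all 3 groups entered 1 quasi-likelihood model, with Benjamini-Hochberg adjustment over all genes tested and calls at an adjusted p of 0.05. Levels are CPM on TMM-scaled library sizes, and a floor of 3 counts applies per library. Intervals are 95%. Replicates were compared by chi-square and no library was a copy of another. p-values measure the spread between these tumors. The fit was tested on simulated data. Of 200 genes given a log2 fold change of 1, 55% were called in Ptgs-/- against Ptgs+/+ tumors. The share was 51.5% between the Ptgs-/- groups and 59% in NK-depleted against Ptgs+/+ tumors. For a log2 fold change of 2 these shares were 86%, 88% and 90%. Alternatives were DESeq2 1.42.0, other scalings, filters, thresholds and tests, the experiment code, the label number and libraries left out.

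The 10 genes, the companion lists and the tests were chosen with earlier results of these data known. Named genes are the 10, up to 4 genes per list with the smallest adjusted p, the 5 genes most like Ccl17 and Ccl22, Cx3cl1 and label checks. Genes named otherwise were chosen after their values were seen: Adgrg5, Clec10a, Stat4, Cd80, Slco5a1, Zbtb46, Flt3, Itgax, Mitf, Tyr, Mlana, Lamp3, Csf2, Il4, Il13, Stat6, Foxp3, Gata3, Ccr8, Tnfrsf9, Ms4a1, Glycam1, Ccl19 and Ccl21a.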

Additional observations from a re-analysis of the deposited data

Results flagged for a closer look

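In groups of 4 samples, the gap of the highest or lowest value to its nearest neighbor was set against the range of the group (critical share 0.829). Chance flags about 1 in 20 groups, and 6 of the 102 values examined in Ptgs+/+ tumors were marked. None was among the 10 genes or their ratios. Ikzf2 was 8.36 CPM in replicate 2 against 10.0 to 10.1 CPM in the others, Cox6a2 was 4.59 CPM in replicate 3 against 2.09 to 2.47 CPM, and Ccr9 was 1.29 CPM in replicate 2 against 2.51 to 2.61 CPM. Fabp4, a fat cell gene, was 4080 CPM in replicate 4 against 697 to 867 CPM, Lyve1 was 43.2 CPM in replicate 2 against 58.1 to 59.7 CPM, and Sox10 was 5.67 CPM in replicate 3 against 1.51 to 1.93 CPM.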

How the results depend on the processing

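In Ptgs-/- relative to Ptgs+/+ tumors, 5 to 7 of the 10 genes passed under every alternative, and Ccl17, Ccl22, Mgl2, Irf4 and Cd40 kept their direction and call, as did Ccr7 except when a log2 fold change of 1.5 was also asked. The count in NK-competent against NK-depleted hosts, 1, was 4 in DESeq2, 3 when no filter on low counts was used, 2 in the likelihood ratio test and with only the 2 groups compared, and 0 with the experiment code as a term, within EB046, without NK-depleted replicates 1 and 2 (added after seeing the data; it leaves that group 1 library, assumed to vary like the others, so its counts say little about stability) and when a log2 fold change of 1.5 was also asked. With libraries left out in turn it was 0 to 2. With the replicate block, the label number as a term, it was 0, since the adjusted p of Ccl22 became 0.0923. Pairs of libraries from different groups were correlated on the deviations of log2 CPM from the group means. Same-numbered pairs gave -0.244 to 0.355 and the other pairs -0.426 to 0.166, so the numbers were not taken to pair libraries. The block also ended the Ccl22 call in NK-depleted against Ptgs+/+ tumors (0.0720). There the count, 5, was 3 with the fold threshold, 2 without NK-depleted replicates 1 and 2, and 4 to 5 with a library left out. The cause was not tested. Values near 0 changed sign. Without 1 library, Ccr7 in NK-depleted against Ptgs+/+ tumors ranged from -0.111 to 0.231, Fscn1 from -0.0454 to 0.119, -0.141 to 0.0328 and -0.00275 to 0.199 in the 3 comparisons, and without NK-depleted replicates 1 and 2 Fscn1 was 0.160 and -0.122 in the latter comparisons, between the Ptgs-/- groups and of NK-depleted against Ptgs+/+ tumors. The ratio of Ccl17 to Ccl22 between the Ptgs-/- groups ranged from -0.0965 to 0.603 and that of Ccl22 to Ccr7 from -0.0550 to 0.634. Over all genes, calls between the Ptgs-/- groups, 209, numbered 383 in DESeq2, 403 in the likelihood ratio test, 408 when no filter was used, 93 within EB046, 132 without NK-depleted replicates 1 and 2 and 106 to 411 with a library left out. Those in Ptgs-/- relative to Ptgs+/+ tumors, 3360, fell to 2222 within EB046 and 2062 without Ptgs-/- replicate 2, and those of NK-depleted against Ptgs+/+ tumors, 1818, to 427 without NK-depleted replicates 1 and 2 and to as few as 909 with a library left out. Of 1260 list counts, 192 moved by over 1.5 times. Levels scaled by library totals stayed within 1 SD. Depth limits Ccr4 and Ccl17 in Ptgs+/+ tumors.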
